A study of Mus musculus with 4 samples.

Results

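The cells described here are CD8-like T cells found in a sort of T follicular helper (Tfh) cells, that is, T cells with transcripts of the CD8 coreceptor in a population gated as CD4+. Of 3916 cells of this sort that passed the filters on quality (no fewer than 500 genes detected, and mitochondrial UMIs no higher than 10%), 126 were members, and the whole series held 8501 such cells. Members were chosen by measured transcripts. Each had at least 1 UMI (a unique molecular identifier, which counts 1 captured RNA molecule) of Cd8a and Cd8b1 together, at least 1 UMI of Cd3d, Cd3e and Cd3g together, and none of the B-cell gene Cd79a. The 3006 T cells of the sort that met the same rule with Cd8a and Cd8b1 at 0 were the reference. The sort collected TCRβ+ CD4+ CD44+ PD-1+ CXCR5+ cells of mediastinal lymph nodes from 3 C57BL/6 mice. The mice had received 10 µg of Alternaria alternata extract, a fungal allergen, together with 25 µg of NP-OVA through the nose and were sampled on day 7. Before capture the cells were exposed to PMA plus ionomycin during 30 min, a treatment that is used to raise cytokine and immediate early transcripts, and no unstimulated cells were analysed here. Cells of the 3 mice carried different hashtag antibodies and shared 1 lane of droplets with version 2 chemistry, and no unimmunized mice were included. A second sort of the series, IL-4 4GET+ activated CD4 T cells of the C57BL/6 4GET IL-4 reporter strain under the same immunization and stimulation, was run with version 3 chemistry and serves here as a description beside the first.

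CD8 is the coreceptor with which cytotoxic T cells bind MHC class I, and in mice it is built from the products of Cd8a and Cd8b1. CD4 binds MHC class II and marks helper T cells, and mature conventional T cells in general keep 1 of the coreceptors, with Runx3 repressing Cd4 in the CD8 lineage and Zbtb7b (ThPOK) holding the CD4 lineage. Activated CD8 T cells are known for interferon-γ, the chemokines CCL3, CCL4, CCL5 and XCL1, and granule proteins such as granzymes, while Tfh cells help B cells through CD40 ligand, IL-21 and IL-4.

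The leading genes sit in known loci of the mouse genome (GRCm38, GENCODE). Cd8b1 lies at chr6:71322788-71337494 and Cd8a at chr6:71373427-71379173, both on the plus strand. Ly6c2 lies at chr15:75108158-75111970 and Xcl1 at chr1:164931644-164935527, both on the minus strand, and Nkg7 at chr7:43437073-43438249 on the plus strand. The 250 bases upstream of the start are shown for the coreceptor gene Cd8a and for 2 genes that were high in the members, from RefSeq (GRCm38.p6). Cd8a had a UMI in 33 of the 126 members. Cd8b1, with a UMI in 116, chose most of them, and no window was available for it. Capitals mark TGTGGT or its complement ACCACA, a core sequence that RUNX factors can bind. Cd8a is chr6:71373177-71373426 on the plus strand, Ly6c2 chr15:75111972-75112221 and Xcl1 chr1:164935523-164935772 on the minus strand.
Cd8a: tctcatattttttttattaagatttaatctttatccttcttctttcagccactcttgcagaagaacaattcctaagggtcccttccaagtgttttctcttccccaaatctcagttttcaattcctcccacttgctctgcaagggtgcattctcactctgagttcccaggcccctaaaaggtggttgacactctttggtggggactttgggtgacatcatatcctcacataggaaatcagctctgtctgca
Ly6c2: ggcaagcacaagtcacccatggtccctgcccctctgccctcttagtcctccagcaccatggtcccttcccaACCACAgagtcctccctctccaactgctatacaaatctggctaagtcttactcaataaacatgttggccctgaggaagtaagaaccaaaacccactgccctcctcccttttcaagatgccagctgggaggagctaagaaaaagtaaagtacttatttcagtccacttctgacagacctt
Xcl1: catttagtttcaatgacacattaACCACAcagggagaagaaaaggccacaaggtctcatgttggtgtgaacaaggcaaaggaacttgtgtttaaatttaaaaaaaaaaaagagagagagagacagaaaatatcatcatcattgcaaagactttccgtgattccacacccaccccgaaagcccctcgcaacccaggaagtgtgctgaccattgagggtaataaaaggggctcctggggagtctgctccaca
The Ly6c2 and Xcl1 windows held 1 match each and the Cd8a window held none. The Nkg7 window, not shown, also held a match. Among 32851 RefSeq promoter windows of this length, 4614 (14.0%) held a match on either strand, so the matches are a description of these letters and no evidence of binding.

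The members were few and somewhat deeper than the reference, with medians of 3637.5 and 2777 UMIs per cell. Hashtags assigned 119 members to mice 1, 2 and 3 (44, 46 and 29 cells) and 2919 reference cells (1091, 1176 and 652), and 7 members had no clear mouse. The 3 sums of member cells held 131566 to 226770 UMIs, against 2497418 to 4211329 in the reference, so counts of members limit the precision. All tests between classes were made on these sums per mouse, and cells of 1 mouse were never counted as replicates in them. Shares of cells by Cd8 UMIs and shares of cells with several transcripts are descriptions over pooled cells, also those without a clear mouse. The members carried T-cell transcripts, with 5909 to 6876 CPM (counts scaled to the UMIs of the sum) over Cd3d, Cd3e, Cd3g, Trac and Trbc2 against 7317 to 7386 in the reference. Defining markers of other cell types were at or near 0 in them. The dendritic cell genes Xcr1, Clec9a, Flt3, Siglech and Itgax and the thymocyte genes Rag1, Rag2 and Dntt had 0 UMIs in all 126 cells. So did Ncr1 and Klrb1c of natural killer (NK) cells and Tcrg-C1 and Sox13 of γδ T cells. Klre1 of the NK list was seen in 1 member and Trdc of the γδ list in 3. The NK list summed to 0, 0 and 15.2 CPM in mice 1, 2 and 3 against 3.26, 1.66 and 1.60 in the reference. The γδ list summed to 13.2, 10.3 and 0 CPM against 8.02, 7.84 and 2.80. Rag1, Rag2 and Dntt had 0 UMIs in the reference too, so their absence does not set the members apart. A sum of 3 B-cell markers was 5.16 to 17.6 CPM against 9.61 to 15.9 in the reference. Ighm, a further B-cell gene, was not near 0, at 528, 451 and 649 CPM in the members of mice 1, 2 and 3 against 386, 320 and 355.

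CD8-like cells made up 3.88% of the T cells of mouse 1 (95% Clopper-Pearson interval 2.83 to 5.17), 3.76% of mouse 2 (2.77 to 4.99) and 4.26% of mouse 3 (2.87 to 6.06). The mean was 3.97% ± 0.26 (SD, n = 3), and the 3 intervals overlapped. Among B cells of the same lane, which should lack CD8, no Cd8a or Cd8b1 UMI was seen in 377 cells (0 of 377, a count that limits the share to 0.796% at most), at a median of 2028 UMIs. Intervals and this limit cover counting error only. After each cell was thinned to 1500 UMIs the share of CD8-like cells was 2.39%.

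The number of coreceptor UMIs differed widely among the members. A single UMI was found in 81 cells, 18 cells had 2 and 27 cells had 3 or more, up to 14. Cd8b1 alone was detected in 93 cells, Cd8a alone in 10 and both in 23. Cells just inside the rule, with 1 UMI, had Cd4 UMIs in 41 of 81 cells (50.6%) and cells just outside it, with none, in 56.0%. The shares were 22.2% (4 of 18) at 2 UMIs and 7.41% (2 of 27) at 3 or more, beside 4.51% (17 of 377) in B cells. Nkg7, a granule membrane protein of cytotoxic cells, ran the other way, with a UMI in 4.06% of reference cells and 0 of 377 B cells. It was detected in 16.0% (13 of 81), 72.2% (13 of 18) and 77.8% (21 of 27) of cells with 1, 2 and 3 or more Cd8 UMIs. Median depths were 2777, 4044, 2409 and 2879 UMIs from 0 to 3 or more Cd8 UMIs, so the cells with 2 or more were not the deeper ones. The markers of the label, Ly6c2, Nkg7 and Xcl1, were chosen with these data in view, so their shares are a description and no test of the name. Of the 45 cells with 2 or more UMIs, 17 had Ly6c2, 34 Nkg7 and 13 Xcl1. Among cells with 1 UMI these markers were found in 6, 13 and 2 of 81, and for most of them the name rests on the single UMI that chose them.

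**Figure D1:**
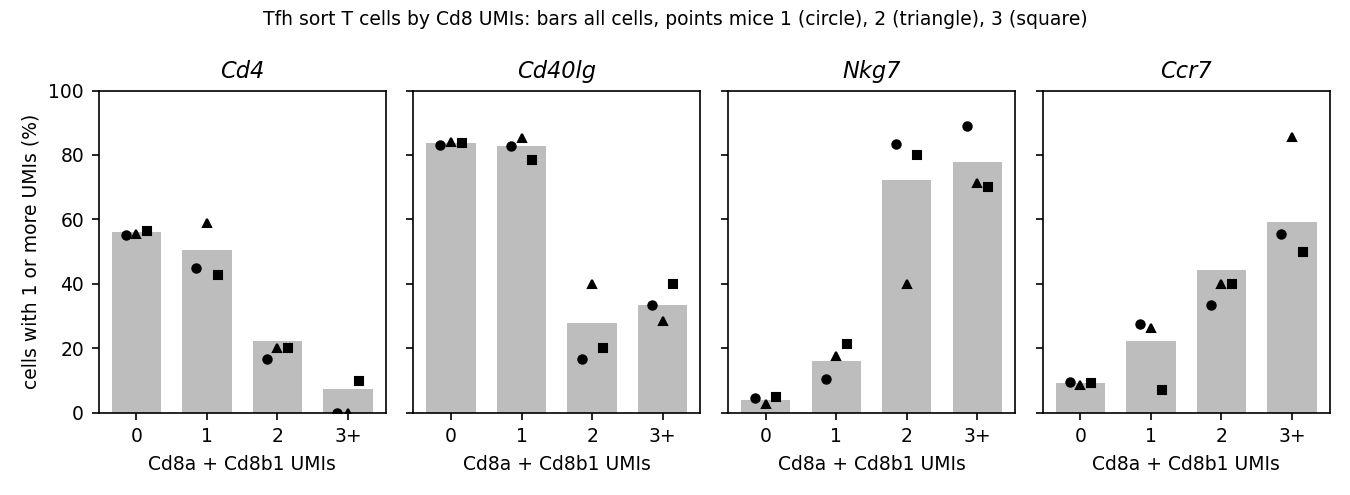
Share of Tfh sort T cells with at least 1 UMI of Cd4, Cd40lg, Nkg7 and Ccr7 (percent, vertical axis) by the number of Cd8a and Cd8b1 UMIs (horizontal axis). Bars are all cells and points the 3 mice; Cd4 and Cd40lg are near the reference share at 1 UMI and lower at 2 and more, while Nkg7 and Ccr7 are highest at 3 or more.

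All members were then set against the reference, mouse by mouse, with edgeR's quasi-likelihood test over 8029 genes, the mouse as a block and Benjamini-Hochberg adjustment at 0.05. The genes of the rule were left out. The test called 161 genes (2.01%), 109 higher in CD8-like cells (1.36%) and 52 lower (0.648%), and the median log2 change over all genes tested was -0.03. The chemokine genes Ccl4 and Ccl3 and the interferon-γ gene Ifng rose, as did the lymph node homing receptor gene Ccr7, and a few helper and Tfh genes, Tnfsf8 among them, fell by smaller amounts. Genes whose reference sums all lay below the low-count filter (7.34 CPM) were tested only through the members in which they were high. These were 395 genes, of which 11 were called, and the called ones named below are given without a p-value, as a description. Ctsw and Ccr2, with only the reference sum of mouse 1 above the filter, also entered through the members and are treated in the same way. In a sort, a change in a sum cannot tell more cells with a transcript from more RNA per cell. The 3 mice were separate animals by hashtag, and n = 3 in this comparison, or 2 where a mouse was left out.

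Of 16 cytotoxic and chemokine genes, 13 were tested, 8 rose, 2 of them the markers Nkg7 and Xcl1, and 1 fell, with a median log2 change of 2.38. Without these 2 markers 6 of 11 rose and the median was 1.28. The 6 include Gzma and Ctsw, which entered the test through the members and are given as a description. The chemokine gene Ccl4 stood at 2690, 1077 and 1722 CPM (scaled by TMM) in the CD8-like cells of mice 1, 2 and 3 and at 132, 80.5 and 178 in the reference. Every CD8-like sum lay above every reference sum, as was so for 9.25% of all genes tested (13.3% lay below), and the log2 difference was 3.82 ± 0.13 SE (edgeR adjusted p = 4.3e-24, 3 of 3 mice higher). Ccl3, its neighbour and near relative, was at 471, 138 and 362 CPM against 19.1, 16.4 and 64.7. It rose by 3.46 ± 0.25 SE (edgeR adjusted p = 2.0e-13, 3 of 3 mice), and reads of the 2 paralogs may be partly shared. Ifng, the gene of the type 1 cytokine interferon-γ, stood at 786, 286 and 816 CPM against 135, 87.8 and 123. Its log2 change was 2.38 ± 0.15 SE (edgeR adjusted p = 4.6e-15, 3 of 3 mice), again with no overlap between the groups. Ctsw, a cathepsin of cytotoxic lymphocytes, was at 62.1, 31.8 and 106 CPM against 8.45, 3.29 and 2.78 (log2 difference 3.62, 3 of 3 mice higher).

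Nkg7 and Xcl1 belong to the same list but were chosen as markers with these data in view, so their values are given as a description. Nkg7 was at 346, 239 and 446 CPM in CD8-like cells and at 37.3, 20.2 and 48.8 in the reference, and Xcl1, a chemokine that attracts cross-presenting dendritic cells, at 333, 79.6 and 136 against 55.2, 13.1 and 10.3. The granzyme gene Gzma, with reference sums below the filter, had 14 UMIs in 5 cells and a log2 difference of 3.52, or 2.26 without mouse 1. Ccl5, named here after its values were seen, was higher only in mouse 1, with 315, 10.6 and 68.0 CPM against 75.8, 18.3 and 71.5, and without that mouse its change was -0.22 (edgeR adjusted p = 0.97). Gzmk and Prf1 had 0 UMIs in the members, and Gzmb and Gzmm, like Prf1, were too low to be tested, though Gzmm was seen in 6 of the 27 cells with 3 or more Cd8 UMIs and in 1 of 3006 reference cells. The cytokine gene Tnf, also named after its values were seen, fell by 0.45 (edgeR adjusted p = 0.024, 3 of 3 mice lower), and the call was lost without mouse 1 (-0.32, edgeR adjusted p = 0.53) or mouse 3 (-0.46, edgeR adjusted p = 0.050025).

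**Figure D2:**
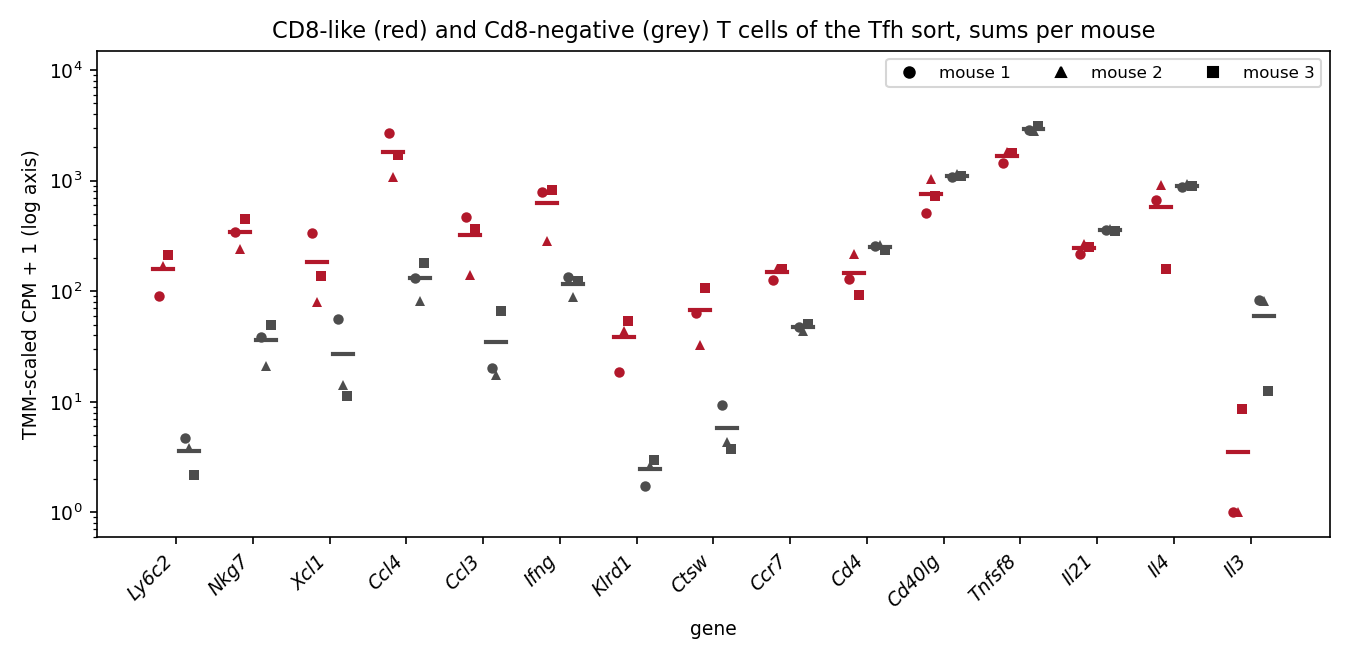
TMM-scaled CPM plus 1 (log axis) of 15 genes in the CD8-like (red) and Cd8-negative (grey) sums of mice 1, 2 and 3, with bars for the means. Ly6c2 to Ccr7 are higher in all 3 mice in CD8-like cells, Cd4 to Il3 are lower in all 3, and the Il4 and Cd40lg sums of mouse 2 lie close together.

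Among receptors of killer cells, 10 of 16 listed genes were tested, and the 2 that passed, Klrd1 and Klrk1, had reference sums below the filter. The median was 0.70. Klrd1 encodes CD94, a receptor partner for MHC class I recognition on NK and CD8 T cells. It was at 17.8, 42.4 and 52.9 CPM against 0.746, 1.64 and 1.99, a log2 difference of 4.62, with no overlap between the groups. Klrk1, which encodes the activating receptor NKG2D, had 8 UMIs, in 2 of 3 mice, with none in mouse 2. Of 17 regulators of CD8 and type 1 cells 15 were tested, 2 rose and 0 fell, with a median of 0.72, or 0.53 without the marker Ly6c2. One was Txk, a kinase of T-cell receptor signalling, at 71.0, 69.0 and 121 CPM against 32.1, 29.1 and 23.4 (1.53 ± 0.30 SE, edgeR adjusted p = 0.0015, 3 of 3 mice). Without mouse 3 it was at 1.19 (edgeR adjusted p = 0.079). The other was the marker Ly6c2, a surface protein of memory and effector CD8 T cells and of monocytes, at 88.8, 170 and 211 CPM against 3.73, 2.82 and 1.19, with reads of its paralog Ly6c1 not fully separable. The lineage regulator Runx3 was not called (-0.10, edgeR adjusted p = 0.97), nor were the T-box genes Eomes (1.69, edgeR adjusted p = 0.40) and Tbx21 (1.52, edgeR adjusted p = 0.72).

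Some of the largest changes were in genes outside these lists and rested on few UMIs. Lcn4, a lipocalin gene, had 13 UMIs in members and 4 in the much larger reference (log2 difference 5.70). Tmem108, a membrane protein gene, had 11 and 7 (4.84). Amica1, which encodes the junctional adhesion molecule-like protein, had 12 and 16 (3.81). The reference sums of these 3 genes lay below the filter.

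Of 14 genes of naive and recirculating T cells 12 were tested, 5 rose, 1 fell and 6 were not called, with a median of 0.92. Ccr7, the receptor that leads T cells into lymph nodes and their T-cell zone, was at 124, 159 and 159 CPM in CD8-like cells and at 46.7, 42.5 and 49.6 in the reference. The sums did not overlap, and the change was 1.66 ± 0.22 SE (edgeR adjusted p = 3.0e-06, 3 of 3 mice). B cells also express Ccr7. It had a UMI in 33.3% of members and in 75.9% of the 377 B cells of the lane, and Ccl4 in 37.3% and 43.2%, at median depths of 3637.5 and 2028 UMIs. With cells that had B-cell transcripts left out, Ccr7 was at 2.03 and Ccl4 at 3.69, both called. Klf2, a transcription factor that keeps up homing receptors, stood at 693, 493 and 483 CPM against 351, 322 and 340. Its change was 0.73 ± 0.12 SE (edgeR adjusted p = 2.0e-04, 3 of 3 mice), and without mouse 1 it was 0.58 (edgeR adjusted p = 0.060). Dapl1 rose by 2.42 ± 0.47 SE (edgeR adjusted p = 0.0014, 3 of 3 mice), with 13.3, 58.4 and 83.1 CPM against 7.70, 9.86 and 7.94, and was at 1.94 without mouse 3 (edgeR adjusted p = 0.065). Satb1, a chromatin organizer named after its values were seen, rose by 0.84 (edgeR adjusted p = 0.041, 3 of 3 mice) and lost the call without mouse 2 (0.69) or mouse 3 (0.63). Tcf7, which encodes the transcription factor TCF-1 of naive, memory and Tfh cells, fell by 0.57 ± 0.13 SE (edgeR adjusted p = 0.012, 3 of 3 mice lower). Its call was lost without mouse 1 (-0.60) or mouse 3 (-0.52).

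Of 10 genes of the CD4 lineage 9 were tested, 2 fell, 0 rose and 7 were not called, with a median of -0.11 beside -0.03 over all genes. Cd4 was at 129, 218 and 90.6 CPM in CD8-like cells and at 255, 261 and 236 in the reference, a log2 change of -0.77 ± 0.18 SE (edgeR adjusted p = 0.013, 3 of 3 mice lower). The 6 sums did not overlap, but mouse 2 came close, and the call was lost without mouse 1 (-0.63, edgeR adjusted p = 0.22) or mouse 3 (-0.60, edgeR adjusted p = 0.14). Cd40lg, whose product activates B cells through CD40, was at 511, 1035 and 733 CPM against 1090, 1155 and 1095. It changed by -0.59 ± 0.12 SE (edgeR adjusted p = 0.0016, 3 of 3 mice lower) and by -0.34 without mouse 1 (edgeR adjusted p = 0.36). The other 7 genes, which include Icos and Cd28, did not pass. The members were deeper, and with member and reference cells matched on depth neither call held, with Cd4 at -0.71 (edgeR adjusted p = 0.075) and Cd40lg at -0.44 (edgeR adjusted p = 0.077).

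Of 21 Tfh genes, all tested, 5 fell and 0 rose, with a median of -0.57. Tnfsf8, the gene of CD30 ligand, was at 1443, 1836 and 1767 CPM against 2869, 2789 and 3158, with no overlap. It changed by -0.81 ± 0.08 SE (edgeR adjusted p = 2.6e-09, 3 of 3 mice lower). Izumo1r, which encodes folate receptor 4, changed by -0.57 ± 0.11 SE (edgeR adjusted p = 0.0018, 3 of 3 mice lower), from 741, 701 and 699 CPM in the reference to 493, 536 and 400. The surface glycoprotein gene Cd200 changed by -0.63 (edgeR adjusted p = 0.017), Il21, the gene of the main Tfh cytokine, by -0.56 (edgeR adjusted p = 0.021), and Il4 by -0.64 (edgeR adjusted p = 0.036), each lower in 3 of 3 mice. Il4 stood at 666, 918 and 159 CPM against 869, 941 and 895, so mouse 3 set much of the difference, and without it the change was -0.21 (edgeR adjusted p = 0.70). Il21 lost the call without mouse 1 (-0.46) or mouse 3 (-0.59), and Cd200 too (-0.68 and -0.52). At matched depth Tnfsf8 (-0.68, edgeR adjusted p = 7.0e-06) was the only Tfh gene called, with Izumo1r at -0.37, Cd200 at -0.55, Il21 at -0.43 and Il4 at -0.58. The gate's receptor genes Cxcr5 and Pdcd1 and the lineage factor gene Bcl6 were not called. Cxcr5, the follicle homing receptor, was at 102, 42.4 and 98.2 CPM against 94.7, 116 and 114 (-0.41 ± 0.25 SE, edgeR adjusted p = 0.65, lower in 2 of 3 mice). Pdcd1, the gene of PD-1, changed by -0.38 ± 0.17 SE (edgeR adjusted p = 0.38, 3 of 3 mice lower) and Bcl6, the Tfh transcription factor, by -0.34 ± 0.56 SE on only 7 UMIs (edgeR adjusted p = 0.91, lower in 2 of 3 mice).

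Of 16 type 2 genes 14 were tested, 2 rose and 4 fell (Il4, Il3, Il10 and Areg), with a median of -0.08. Il3, the gene of a growth factor for basophils and mast cells, had 1 UMI in the members against 704 in the reference, a ratio of 36.3 in favour of the reference (95% counting interval 6.50 to 1437). It was at 0, 0 and 7.55 CPM in the members of mice 1, 2 and 3 against 82.8, 80.3 and 11.5, so the difference came mainly from mice 1 and 2. The call was lost with DESeq2 (adjusted p = 0.66) and without the mouse block (edgeR adjusted p = 0.22). Il10, an anti-inflammatory cytokine gene, changed by -1.40 ± 0.27 SE (edgeR adjusted p = 0.0014, 3 of 3 mice lower), with 31.1, 90.2 and 37.8 CPM against 161, 135 and 119, and was at -0.91 without mouse 1 (edgeR adjusted p = 0.19). Areg, an epithelial repair factor gene, changed by -0.68 (edgeR adjusted p = 0.015) but was lower in only 2 of 3 mice, and without mouse 1 it was at -0.35. Plac8 rose by 2.86 ± 0.44 SE (edgeR adjusted p = 3.8e-05, 3 of 3 mice), with 13.3, 133 and 143 CPM against 10.9, 20.4 and 2.78. Il13, a cytokine gene of allergic inflammation, passed at 1.22 ± 0.33 SE (edgeR adjusted p = 0.035) through mouse 2. It was at 40.0, 732 and 113 CPM against 152, 136 and 38.1, higher in 2 of 3 mice, and at -0.55 without mouse 2.

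Falls outside the lists included cytokine and macrophage genes. Il22, the gene of a barrier-tissue cytokine, had 2 UMIs in members against 353, a ratio of 9.11 in favour of the reference (95% counting interval 2.50 to 75.5). Lyz2, the lysozyme gene of macrophages, changed by -3.25 ± 0.40 SE (edgeR adjusted p = 5.6e-07, 3 of 3 mice lower) and the lipid carrier gene Apoe by -2.91 ± 0.54 SE (edgeR adjusted p = 9.9e-04, 3 of 3 mice lower). The macrophage markers C1qa, C1qb, Lyz2 and Csf1r together summed to 7.60 to 13.2 CPM in the members against 66.5 to 159 in the reference. All but Lyz2 were at 0 in the members, 89 of 3006 reference cells held a UMI of the list, and the part of such cells or free RNA in these falls was not tested. Further falls were in the phosphatase gene Ptpn13 (3 UMIs, a ratio of 5.38 with a 95% counting interval of 1.83 to 26.2), the kinase activator gene Cdk5r1 (-2.34), the deiminase gene Padi4 (-2.02), Arid5b (-1.32) and the methyltransferase gene Prmt3 (-1.13). Padi4 kept the call with any mouse left out and lost it with DESeq2, with exactly 1 Cd8 UMI and in members with Cd4. Without mouse 1 the others lost it, with Ptpn13 at -2.28, Cdk5r1 at -2.06, Arid5b at -1.05 and Prmt3 at -0.70. Ptpn13 also lost it without mouse 2 (-2.23) or 3 (-2.56), Arid5b without mouse 2 (-1.16) and Cdk5r1 without mouse 3 (-2.30), and Il22 without mouse 1 (-2.68) or 3 (-2.51).

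Of 10 Treg genes 9 were tested, 4 rose and 0 fell, with a median of 0.97. Capg, an actin-capping protein gene, rose by 0.97 ± 0.20 SE (edgeR adjusted p = 0.0024, 3 of 3 mice). The enkephalin gene Penk rose by 1.74 (edgeR adjusted p = 0.0039, 2 of 3 mice), the IL-2 receptor gene Il2ra by 1.39 (edgeR adjusted p = 0.044, 3 of 3 mice) and Tnfrsf9, which encodes 4-1BB, by 0.74 (edgeR adjusted p = 0.030, 3 of 3 mice). Each of these 3 lost the call without mouse 2, at 1.47, 1.14 and 0.59, and without another mouse, Penk (1.88) and Tnfrsf9 (0.72) without mouse 1 and Il2ra (1.14) without mouse 3. Without cells that had a Foxp3 UMI, Capg was at 0.43 (edgeR adjusted p = 0.68), Il2ra at 1.32 (adjusted p = 0.33) and Tnfrsf9 at 0.71 (adjusted p = 0.14), none called, while Penk was at 2.25 and called. Capg was at 0.17 without cells with B-cell transcripts and at 0.66 without cycling cells, not called in either. Foxp3, the defining Treg factor, had 14 UMIs and did not pass (1.69 ± 0.55 SE, edgeR adjusted p = 0.13, 3 of 3 mice higher). Of 25 genes of acute stimulation 2 rose and 1 fell, with a median of -0.05. Myc, a driver of growth, was at 661, 599 and 642 CPM against 338, 292 and 324 with no overlap, and rose by 1.00 ± 0.11 SE (edgeR adjusted p = 1.2e-07, 3 of 3 mice). The early response gene Ier3 rose by 1.94 ± 0.34 SE (edgeR adjusted p = 5.5e-04, 3 of 3 mice), and Fos, an AP-1 subunit gene, fell by 0.26 (edgeR adjusted p = 0.028, 3 of 3 mice), a call lost without mouse 1 (-0.16).

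All 24 proliferation genes had positive log2 changes, 5 passed and the median was 0.39. Stmn1, a regulator of microtubules, rose by 0.66 ± 0.10 SE (edgeR adjusted p = 8.8e-05, 3 of 3 mice), with 804, 690 and 944 CPM against 477, 488 and 575, and with cells matched on depth it was at 0.23 (edgeR adjusted p = 0.49). The survival and division gene Birc5 rose by 0.72 ± 0.16 SE (edgeR adjusted p = 0.0075, 3 of 3 mice), Rrm2, a nucleotide synthesis gene, by 0.70 (edgeR adjusted p = 0.022, 3 of 3 mice) and Tubb5 by 0.39 (edgeR adjusted p = 0.015, 3 of 3 mice, uncertain among tubulin paralogs). These 3 lost the call without mouse 1, at 0.54, 0.37 and 0.30. At matched depth 0 of the 24 were called, 15 were positive and the median was 0.03, with Birc5 at 0.29, Rrm2 at 0.32 and Tubb5 at 0.07. The replication gene Mcm3, named after its values were seen, rose by 0.71 (edgeR adjusted p = 0.034) and lost the call without any one of the 3 mice. Among 12 B-cell markers 7 were tested, and Ighm rose by 0.60 ± 0.12 SE (edgeR adjusted p = 0.0024, 3 of 3 mice), a call lost without mouse 3 (0.47) and when cells with B-cell transcripts were left out. Of 10 macrophage and monocyte markers 4 were tested, where Ccr2 and Ly6c2 were higher and Lyz2 fell. Ccr2, a receptor also of effector T cells, had 17 UMIs and a log2 difference of 2.06 (3 of 3 mice), or 1.66 without mouse 3. No tested marker of NK, NKT and γδ T cells (3 tested of 15), dendritic cells (2 of 12) or thymocytes (2 of 8) passed.

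**Figure D3:**
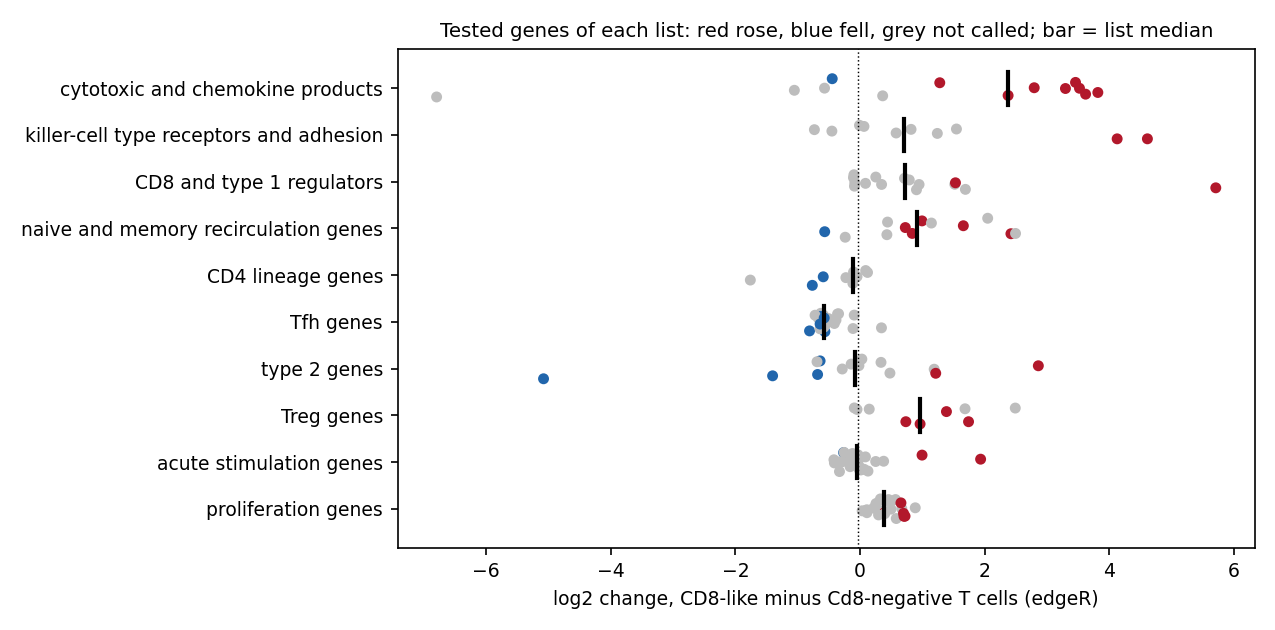
Log2 change of CD8-like against Cd8-negative T cells (horizontal axis) for each tested gene of 10 lists, red where it rose, blue where it fell and grey where it was not called, with black bars for list medians and a dotted line for the median of all genes. Cytotoxic and chemokine genes centre on 2.38 and Tfh genes on -0.57; the leftmost point is Gzmk, whose 0 UMIs in members make its fitted value no measure of size.

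The members were then divided by their coreceptor UMIs, and each class was set against the same reference. This division was made after seeing the data for cells with exactly 1 UMI, and the comparisons share their reference, so values are given side by side. With 2 or more Cd8 UMIs (15, 12 and 15 cells in mice 1, 2 and 3), edgeR called 365 of 7664 genes (4.76%), 132 higher (1.72%) and 233 lower (3.04%). With exactly 1 UMI (29, 34 and 14 cells), it called 33 of 7757 (0.425%), 22 higher (0.284%) and 11 lower (0.142%). The median log2 change over all genes was -0.34 and -0.06 in these fits. Cytotoxic and chemokine genes centred on 3.83 in the cells with 2 or more UMIs, where 8 of 13 rose, and on -0.43 in the cells with 1, where 1 of 12, Nkg7, rose. Without the markers Nkg7 and Xcl1 these were 6 of 11 with a median of 2.13, and 0 of 10 with a median of -0.43. The 6 include Gzma and Ctsw, which again entered the test through the members. Gzma was not tested in the cells with 1 UMI, so the 2 sets of genes differ. Ccl4 was at 5.27 ± 0.14 SE with 2 or more UMIs and at 0.77 ± 0.22 SE with 1, and only the former was called. Ifng stood at 3.83 ± 0.17 SE and -1.04 ± 0.30 SE, Ccl3 at 4.97 ± 0.25 SE and -1.88 ± 0.71 SE, and in both cases the second value was not called. In CPM, Ccl4 was at 8771, 3563 and 3822 in the cells with 2 or more UMIs and Ifng at 2707, 891 and 1772. The marker Nkg7 was above 0 in both, at 4.55 ± 0.25 SE and 1.38 ± 0.33 SE. In the cells with 2 or more UMIs the NK and T-cell receptor gene Slamf7 (1.55 ± 0.38 SE) also rose, and the inhibitory receptor gene Lag3 (-1.82 ± 0.38 SE) and the integrin gene Itgal (-1.63 ± 0.46 SE) fell.

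Of 9 CD4 lineage genes 3 fell in the cells with 2 or more UMIs (Cd4, Cd40lg and Tnfrsf4, median -0.98) and 0 in those with 1 UMI (median 0.01). Cd4 fell by 2.48 ± 0.40 SE with 2 or more UMIs and was at -0.48 ± 0.20 SE with 1, not called. Cd40lg was at -2.67 ± 0.22 SE, called, and -0.25 ± 0.13 SE, not called. In CPM, Cd40lg was at 95.0, 223 and 243 in the cells with 2 or more. Il4 was at -4.16 ± 0.30 SE and, not called, -0.27 ± 0.15 SE, and Tnfsf8 at -2.86 ± 0.16 SE and -0.46 ± 0.11 SE, both called. Of 21 Tfh genes 13 fell with 2 or more UMIs (median -1.64) and 1 fell with 1 UMI (median -0.38). In the same order, with no call at 1 UMI, Pdcd1 was at -1.84 ± 0.38 SE and -0.12 ± 0.20 SE, the Tfh regulator Tox2 at -1.87 ± 0.44 SE and -0.40 ± 0.23 SE, and Maf, a driver of Il21 and Il4, at -1.56 ± 0.47 SE and -0.41 ± 0.26 SE. Cxcr5 stayed uncalled in both fits (-0.81 ± 0.45 SE and -0.37 ± 0.27 SE). Cxcr5 was detected in 6 of the 45 cells with 2 or more UMIs, and Pdcd1 in 5 of them.

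Of 11 recirculation genes tested, 7 rose and 1 fell with 2 or more UMIs (median 1.59), and 0 of 11 rose or fell with 1 UMI (median 0.09). With no call at 1 UMI, Ccr7 was at 2.30 ± 0.35 SE and 1.02 ± 0.31 SE, Klf2 at 1.53 ± 0.17 SE and -0.10 ± 0.18 SE, and Il7r, the IL-7 receptor gene of resting T cells, at 3.14 ± 0.86 SE and 0.97 ± 0.92 SE. Tcf7 was at -1.95 ± 0.29 SE and, not called, -0.30 ± 0.16 SE. Proliferation genes had the opposite order. With 1 UMI, Mki67, Birc5, Stmn1 and Rrm2 rose and the median over 24 genes was 0.51, while with 2 or more UMIs 0 rose, Ccnb1 fell and the median was -0.18. Stmn1 was at 0.82 ± 0.13 SE with 1 UMI and, not called, at -0.12 ± 0.19 SE with 2 or more. Il13 (1.56 ± 0.26 SE) and Penk (1.93 ± 0.40 SE) rose in the cells with 1 UMI, and in those with 2 or more they were at -3.27 ± 0.72 SE, a fall, and 0.75 ± 0.91 SE, not called. Over all members both genes lost the call without mouse 2. Leaving out a mouse was not tried in the cells with 1 UMI. Of 25 acute stimulation genes 8 fell and 4 rose with 2 or more UMIs, with Il2, the growth factor gene of T cells, at -2.47 ± 0.21 SE, Myc at 1.39 ± 0.18 SE and Jun at 0.73 ± 0.22 SE. The difference between cells with 1 and with 2 or more UMIs was not itself tested gene by gene. The depths differed too, with medians of 4044 and 2633 UMIs.

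**Figure D4:**
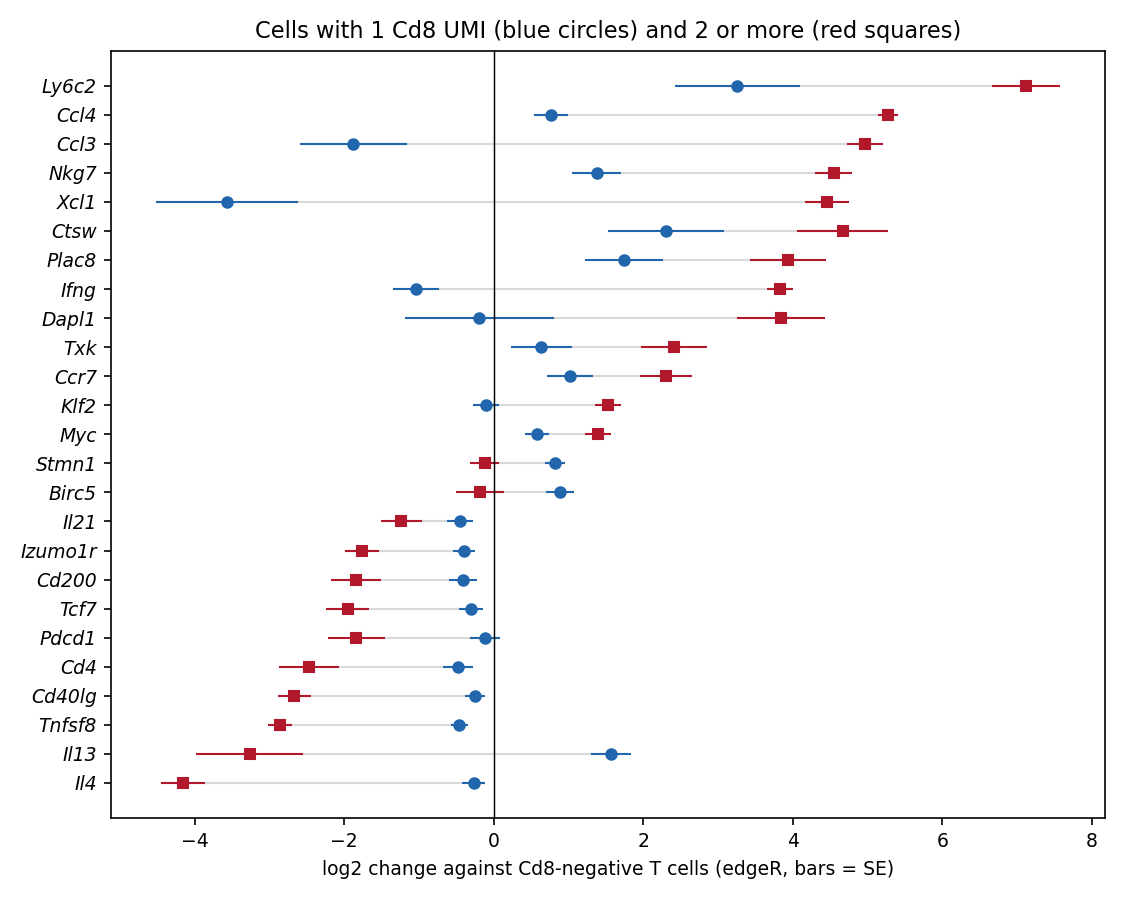
Log2 change against Cd8-negative T cells (horizontal axis, bars are SE) of 25 genes in cells with 1 Cd8 UMI (blue circles) and with 2 or more (red squares). The red squares run from 7.12 for Ly6c2 to -4.16 for Il4, and most blue circles lie nearer to 0.

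A second comparison asked how members without a Cd4 UMI differed from members with one. Cd4 was found in 47 of the 126 cells, and 79 had none. Mice 1 and 2 gave sums of 30 and 25 Cd4-negative and 14 and 21 Cd4-positive cells. Mouse 3 had only 8 Cd4-positive cells and was left out, so the test rests on 4 sums and its p-values on little residual information. The Cd4-positive members were also deeper, with medians of 4414 UMIs against 2938, and the share of doublets of a CD8 and a CD4 T cell among them was not tested. Over 1573 genes edgeR called 83 (5.28%), 59 higher in Cd4-negative members (3.75%) and 24 lower (1.53%). Genes with few UMIs in 1 class passed the low-count filter through the class where they were high. The calls include such genes, and Ccl4, Ifng, Tox2, Ube2c and Cenpa are therefore given without a p-value, as a description. So are Ccnb2, Anxa2, Nusap1, Prdx2, Top2a, Rrm2, Smad7, Vps37b and Socs1, which entered in part through the higher class.

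Cytotoxic and chemokine genes were higher in the Cd4-negative members. Of 7 tested, 5 rose, with a median of 4.83. Among the 5 were the markers Nkg7 and Xcl1, beside Ccl3, Ccl4 and Ifng. All 5 had few UMIs in the Cd4-positive sums, so this count and median are a description. Ccl4 was at 4321 and 2408 CPM in the Cd4-negative sums of mice 1 and 2 and at 113 and 18.2 in the Cd4-positive sums. These were 797 UMIs against 12, a log2 difference of 5.74 (2 of 2 mice higher). Ifng was at 1269 and 599 CPM against 22.6 and 36.3, or 225 UMIs against 6 (log2 difference 4.83, 2 of 2 mice). Ccl3 had 131 UMIs against 1, a ratio of 107 with a 95% counting interval of 18.9 to 4274. The markers Nkg7, with 116 UMIs against 7, Xcl1, with 89 against 1, and Ly6c2, with 51 against 1, are given as a description. Il4 ran the other way, at 116 and 491 CPM in Cd4-negative sums and 1516 and 1198 in Cd4-positive sums (-2.34 ± 0.37 SE, edgeR adjusted p = 0.0019, lower in 2 of 2 mice). So did Il2 (-1.64 ± 0.24 SE, edgeR adjusted p = 7.6e-04) and Sh2d1a, which encodes the adaptor SAP needed for help to B cells (-1.17 ± 0.30 SE, edgeR adjusted p = 0.032), each lower in 2 of 2 mice. Tox2 had 12 UMIs in the Cd4-negative sums against 38 (log2 difference -1.92, lower in 2 of 2 mice). At matched depth Tox2 and Sh2d1a lost the call, and Il2 kept it.

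Of 17 proliferation genes 6 were lower in the Cd4-negative members and 0 higher, with a median of -0.83. Ccnb2, Ube2c, Cenpa, Top2a and Rrm2 among them entered the test in part through the Cd4-positive sums. This count and median are therefore a description. Ube2c, a mitotic ubiquitin enzyme gene, had 19 UMIs in the Cd4-negative sums against 78 (log2 difference -2.21). The centromere gene Cenpa had 17 against 70 (-2.17), and both were lower in 2 of 2 mice. Among further rises were the signalling inhibitor genes Smad7 (1.89) and Socs1 (1.56), Vps37b (1.65), the chaperone gene Hspe1 (1.36), Klf2 (1.18) and Myc (1.00). Further falls were in Ccnb2 (-2.35), Anxa2 (-2.04), Nusap1 (-1.55), Prdx2 (-1.51), the histone gene H2afx (-1.49), Top2a (-1.46) and Rrm2 (-1.45). At matched depth Nusap1, Top2a and Rrm2 lost the call, while H2afx kept it. The falls other than H2afx entered the test in part through the Cd4-positive sums, so they are a description. Il21 (-0.63 ± 0.32 SE, edgeR adjusted p = 0.35), Pdcd1 (-1.26 ± 0.37 SE, edgeR adjusted p = 0.063) and Il13 (-1.19 ± 0.37 SE, edgeR adjusted p = 0.073), each lower in 2 of 2 mice, did not pass. Ccr7 did not pass either (1.32 ± 0.42 SE, edgeR adjusted p = 0.081, 2 of 2 mice higher).

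Within the members, transcripts of effector genes lay in a minority of cells. Ccl4 had 1189 UMIs in 47 of 126 cells, and the 5 highest cells held 50.4% of them. Ifng had 356 UMIs in 33 cells (43.8% in the 5 highest), Xcl1 125 in 15 (68.8%) and Ccl5 124 in 14 (87.9%). Nkg7, with 195 UMIs in 47 cells (30.3%), and Ccr7, with 86 in 42 (29.1%), were spread more evenly. The 5 highest Ccl4 cells could thus move a sum, and the highest single cell held 129, 124 and 72 UMIs in mice 1, 2 and 3.

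The same cells carried several of these transcripts. Nkg7 was detected in 22 of the 23 cells with Ly6c2 (95.7%) and in 24.3% of the others. Ccl4 was detected in 14 of the 15 cells with Xcl1 (93.3%) against 29.7%, and Xcl1 in 42.4% of the cells with Ifng against 1.08%. Cells with Ccr7 had Nkg7 in 59.5% (25 of 42), cells without it in 26.2%, so the homing receptor and the granule gene were not on separate members. Nkg7 was found in 10.6% of members with Cd4 and 53.2% of those without, and in 16.7% of members with Pdcd1 and 50.0% of those without. These shares are descriptions over cells that share libraries and differ in depth. After thinning to 1500 UMIs, Nkg7 was found in 29.3% ± 7.68 (SD, n = 3) of members, Ccr7 in 19.7% ± 3.09, Ifng in 24.0% ± 6.12 and Cd4 in 15.9% ± 8.78. The reference had 2.62% ± 0.76, 4.90% ± 0.75, 5.80% ± 1.59 and 32.2% ± 0.98, where 2 members and 61 reference cells were too shallow to be thinned.

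In the IL-4 reporter sort the same rule found 301 members among 4164 T cells, or 7.64, 7.79 and 7.29% in its 3 mice, at deeper medians of 8740 UMIs in members and 6290 in the reference. Among B cells there, 0 of 139 had a Cd8 UMI (up to 2.16%). A single UMI was found in 183 members, 35 had 2 and 83 had 3 or more. Nkg7 was detected in 12.6, 11.4 and 72.3% of these 3 classes and Cd4 in 80.9, 85.7 and 32.5%, so in that deeper library the change came between 2 UMIs and 3. The cells with 2 UMIs there had a median of 26647 UMIs, several times that of the other classes. Ccl4 was at 278, 288 and 254 CPM in those members against 80.2, 53.3 and 28.0 in their reference, and Ifng at 120, 63.3 and 169 against 40.6, 45.3 and 35.2. Strain, chemistry, sequencing run and perhaps the Cell Ranger version differ between the sorts and cannot be told apart from the gate, so no test was made between them.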

How the data were processed

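The deposited count matrices hold whole-number UMI counts per gene and cell, and the deposited hashtag tables hold counts of hashtag antibody tags per cell. Per the submitters' processing notes the authors used Cell Ranger 2.2.0 and mm10, while the header of the reporter matrix names a later version of Cell Ranger. The matrix had 28692 features, and 67 that repeated a symbol were summed.

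A cell belonged to a mouse where its top of 3 hashtags had 10 or more counts and 3 times the next. Cells without a clear hashtag, which include doublets between mice, and cells with Cd79a were left out. No doublet caller was run, so doublets within a mouse remain.

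UMIs were summed per mouse and class (10 cells or more) and tested with edgeR 4.0.16 in R 4.3.3 (quasi-likelihood, TMM, filterByExpr with a minimum count of 10, mouse as block, Benjamini-Hochberg over all genes tested, 0.05). The mouse pairs the sums because same-numbered sums come from 1 animal by hashtag, although the correlations of their deviations were only 0.0173, 0.0405 and 0.00318. P-values rest on the spread left between sums after the mouse block, with dispersions estimated in part over all genes. A small p-value is therefore no measure of how closely the mice agreed on that gene, as Il13 shows. SE is the log2 change divided by the square root of F and is approximate. CPM of the comparisons are TMM-scaled, and those of subgroups and of the reporter sort are not. The genes of the rule were left out of tests, and Cd4 also where it defined the classes. DESeq2 1.42.0, other filters, matched depth and leaving out each mouse were alternatives. Only the edgeR fit was run on simulated sums, with a fixed dispersion and no mouse effect. For the first comparison it called 27.3% of simulated 2-fold changes, 72.2% of 4-fold changes and 0.0383% of unchanged genes.

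The members and gene lists were chosen with earlier results of these data known. Named genes are 16 preset genes, the 10 largest rises and falls (adjusted p under 0.05, the same direction in every mouse, 20 CPM or more, with a proper name) and up to 4 called genes per list. Genes named beyond this, such as those of the cells with 2 or more Cd8 UMIs, were chosen after their values were seen. Members with exactly 1 Cd8 UMI and members with Cd4 were alternatives chosen after seeing the data. Coordinates are GRCm38. A few genes of the naming rule and of the marker lists are not reported here by name, though list counts and sums include them.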

Additional observations from a re-analysis of the deposited data

Results flagged for a closer look

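Ccr7 was higher in the CD8-like cells of all 3 mice of the Tfh sort and lower in those of all 3 mice of the IL-4 reporter sort. The log2 ratios of CPM plus 1 were 1.39, 1.88 and 1.66 in the Tfh sort (mean 1.64) and -0.28, -0.07 and -0.17 in the reporter sort (mean -0.18). Tnfrsf9 also ran in opposite directions, at 0.77, 1.02 and 0.11 (mean 0.64) against -0.57, -0.32 and -0.29 (mean -0.39). The difference between the sorts was not tested for either gene, and strain, chemistry and gate cannot be told apart.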

How the results depend on the processing

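The count of genes called between CD8-like and Cd8-negative cells, 161, became 33 for members with exactly 1 Cd8 UMI, 365 for 2 or more, 79 for members with Cd4 (mice 1 and 2 alone, since mouse 3 had 8 such cells), 102 at matched depth, 34 with DESeq2 and 103 without cells with B-cell transcripts. With DESeq2 32 were higher and 2 lower, and the falls of Cd4, Cd40lg, Izumo1r, Cd200, Il21, Il4, Tcf7, Il10 and Padi4 were among those lost. Leaving out a mouse gave 90 to 168. Without the mouse block 171 were called, and there the falls of Lyz2 and Apoe were lost. Of the calls 67.7% were higher, against 72.9% with RLE size factors, 94.1% with DESeq2 and 46.4% without the low-count filter. Between Cd4-negative and Cd4-positive members, 83 calls became 48 at matched depth, 52 with DESeq2, 4 with 1000 or more genes per cell, 137 at 5% mitochondrial UMIs and 101 without the mouse block. The mean share of 3.97% became 4.23% at 5% mitochondrial UMIs, 3.65% with 1000 genes, 3.66% without B-cell transcripts, 1.50% with 2 or more Cd8 UMIs, 2.59% without Cd4 and 2.39% after thinning, and 3.82 to 4.07% with a mouse left out.

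For the 56 named genes of the CD8-like and Cd8-negative comparison, 27 values over the alternatives reversed and 238 lost the call. Another 2 gained it, and 807 kept call and direction. For the 30 named genes of the Cd4 comparison 33 values lost the call, 11 gained it and 189 kept both. The causes were not tested, and the values that follow are of the first comparison. With 1 Cd8 UMI, Xcl1 was at -3.57, Ifng at -1.04, Ccl3 at -1.88, Klf2 at -0.10 and Dapl1 at -0.20. In members with Cd4, Xcl1 was at -2.79, Ifng -1.98, Ccl4 -0.92, Ctsw -0.28, Ccl3 -1.93, Klf2 -0.11, Dapl1 -7.25, Il2ra -0.22, Ighm -0.046, Ccr2 -0.81, Il4 0.44 and Pdcd1 0.069. With 2 or more Cd8 UMIs, Il13 was at -3.27, Stmn1 -0.12, Birc5 -0.19 and Rrm2 -0.12. Without Cd4, Tubb5 was at -0.066 and Rrm2 at -0.31. Without cycling cells, Bcl6 was at 0.27, Stmn1 -0.11 and Rrm2 -0.98. Il13 ran from -0.55 to 2.24 with a mouse left out. No value was obtained for the Cd4 comparison with a mouse left out, with 2 or more Cd8 UMIs or without B-cell transcripts, since too few sums or cells remained. The 126 cells limit the precision of low genes.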
